A study of Homo sapiens with 8 samples.

Results

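The 10 genes described here encode transcription factors that drive epithelial-mesenchymal transition (EMT): ZEB1, ZEB2, SNAI1, SNAI2, TWIST1, TWIST2, PRRX1, FOXC1, FOXC2 and TCF4. They were taken by gene symbol from the deposited RNA-seq table of 21059 genes, and all 10 were found. The cells were MDA-MB-157, a widely used ER-negative breast cancer line of human origin. Cells were kept in serum-free medium for 48 hours at 1 of 2 glucose concentrations, 5 mM (4 libraries, low glucose) and 25 mM (4 libraries, high glucose), and per the study's methods they had been conditioned in low glucose beforehand. The comparison asks how transcripts differ in these cells between a normal glucose level and one that models hyperglycemia. The culture is 1 line, the labels do not say whether an osmotic control was added to the low glucose medium, and they do not say whether replicates were separate cultures, so that p-values measure the spread between these samples, which may be technical.

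In EMT, epithelial cells lose cell-cell junctions and apical-basal polarity and take on a motile, matrix-producing state. ZEB and SNAI proteins are zinc finger repressors that bind E-boxes in the promoters of epithelial genes such as CDH1, which encodes E-cadherin. TWIST proteins and TCF4 (also known as E2-2) are basic helix-loop-helix factors that work as dimers with E proteins, and ID proteins block such dimers. PRRX1 is a homeobox factor, and FOXC1 and FOXC2 are forkhead factors; all 3 are known from mesenchymal development. In epithelial cells the miR-200 microRNAs and ZEB1 and ZEB2 hold each other down.

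Values are normalised read counts, scaled to library size (CPM), that the authors scaled with TMM factors. The libraries held an estimated 9721649 to 12482542 reads, and 3 reads, taken as the floor, were worth 0.212 to 0.267 CPM. The markers of the line were present in part. VIM was at 4091 ± 28.5 CPM (SD, n = 4) at low glucose, KRT18 at 233 ± 4.85 CPM and KRT8 at 131 ± 5.95 CPM, and ESR1, KRT19, KRT5 and KRT14 had group means of 0.227 CPM or less. CDH1 was at 0.949 ± 0.204 CPM. Of the 11 markers of the line, 4 fell and 1 rose at high glucose. This was a share of 45.5% at an adjusted p under 0.05 (limma), near the 46.8% of all genes. KRT18 fell to 170.1 ± 18.1 CPM (adjusted p = 0.00149, limma) and KRT8 to 88.3 ± 10.3 CPM (adjusted p = 0.00117). VIM and ERBB2 also fell, with log2 changes of -0.466 and -0.688. EPCAM, an epithelial marker, rose with a log2 change of 0.541 (adjusted p = 0.00104, limma), and its groups did not overlap. Of 8 markers of blood, endothelial and liver cells, 5 were in the table, and their summed level ranged from 10.7 to 15.4 CPM at low and from 13.3 to 17.0 CPM at high glucose, most of it CD68 at 11.1 ± 1.72 and 12.1 ± 1.72 CPM; PTPRC and ALB had means of at most 0.217 CPM. Of the endothelial markers, PECAM1 was at 1.0 ± 0.159 and 2.13 ± 0.580 CPM (adjusted p = 0.00775, limma) and CDH5 at 0.279 ± 0.130 and 0.0206 ± 0.0412 CPM (adjusted p = 0.0116), the only 2 of the 5 that passed. The part of these markers in the results below was not tested. High glucose replicate 1 stood apart by transcript length: its median log2 deviation from the high glucose mean was 0.17 over genes with transcripts under 2 kb and -0.13 over those of 5 kb and over, against -0.08 to 0.08 in the other 7 libraries. Values without that library are therefore given where they matter.

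The microRNAs that restrain ZEB1 and ZEB2 are shown with their seeds (bases 2 to 8) in capitals, since both of their host transcripts in the table were at 0 in every library. MIR200CHG, the host of miR-200c and miR-141, and MIR205HG, the host of miR-205, had 0 reads in all 8 libraries, which allows up to 0.267 CPM in a library. These 2 hosts were chosen after their values were seen, and mature microRNAs were not measured. Sequences and positions are from RefSeq (GRCh38.p14). The first 3 share a seed, as do the next 2, and miR-205 has its own.
miR-200b-3p: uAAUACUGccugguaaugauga
miR-200c-3p: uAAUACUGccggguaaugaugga
miR-429: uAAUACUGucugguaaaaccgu
miR-200a-3p: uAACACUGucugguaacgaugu
miR-141-3p: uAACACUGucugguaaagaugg
miR-205-5p: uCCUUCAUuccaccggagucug
The match to the seed of the first 3, CAGTATT, occurred 6 times in the 2540-base 3′ UTR of ZEB1 and 5 times in the 5370-base 3′ UTR of ZEB2. Of 4550 human 3′ UTRs read over the same 2540 bases, 27.5% held the match and 0.022% held at least 6. Of 1116 read over 5370 bases, 47.5% held it and 0.0896% held at least 5. ZEB1 and ZEB2 were not taken out of these sets, and each alone makes up the share that held as many. The match to the seed of miR-200a and miR-141, CAGTGTT, occurred 3 times in ZEB1 and 4 times in ZEB2, where 30% and 51% of the same windows held it. The match to the seed of miR-205, ATGAAGG, occurred 1 time in ZEB1 and 0 times in ZEB2, with 18.6% and 35% of windows holding it. Among the other 8 genes, SNAI2 and TCF4 each held CAGTATT 1 time, TCF4 held CAGTGTT 2 times and FOXC1 1 time, and the remaining 5 held none of the 3. These letters describe the transcripts and are not measured sites.

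The 250 bases before the start of FOXC1, TWIST2, ZEB1 and ZEB2 are shown next because these 4 genes span the largest rise, a paralog that rose against its twin, and a pair of which 1 member rose. Capitals mark the E-box that ZEB and SNAI proteins bind, CAGGTG, which reads in the other direction as CACCTG, and a further E-box that is the same on both strands, CACGTG.
FOXC1, chr6.0:1609665-1609914, plus strand: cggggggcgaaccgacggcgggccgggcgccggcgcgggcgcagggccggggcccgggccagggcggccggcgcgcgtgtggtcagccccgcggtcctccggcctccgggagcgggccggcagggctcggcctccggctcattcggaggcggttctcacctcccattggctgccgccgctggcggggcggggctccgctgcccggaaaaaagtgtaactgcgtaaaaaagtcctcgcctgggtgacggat
TWIST2, chr2.0:238847835-238848084, plus strand: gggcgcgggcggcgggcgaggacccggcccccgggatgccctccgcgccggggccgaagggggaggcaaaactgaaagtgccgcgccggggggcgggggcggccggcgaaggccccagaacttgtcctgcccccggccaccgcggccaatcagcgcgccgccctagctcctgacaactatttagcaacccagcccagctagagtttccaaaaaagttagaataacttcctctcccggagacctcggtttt
ZEB1, chr10.0:31318167-31318416, plus strand: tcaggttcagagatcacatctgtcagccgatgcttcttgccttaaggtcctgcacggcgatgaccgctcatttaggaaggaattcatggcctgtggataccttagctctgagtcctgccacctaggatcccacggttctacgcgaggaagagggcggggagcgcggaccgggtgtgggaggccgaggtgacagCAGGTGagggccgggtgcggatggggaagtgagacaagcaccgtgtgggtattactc
ZEB2, chr2.0:144520120-144520369, minus strand: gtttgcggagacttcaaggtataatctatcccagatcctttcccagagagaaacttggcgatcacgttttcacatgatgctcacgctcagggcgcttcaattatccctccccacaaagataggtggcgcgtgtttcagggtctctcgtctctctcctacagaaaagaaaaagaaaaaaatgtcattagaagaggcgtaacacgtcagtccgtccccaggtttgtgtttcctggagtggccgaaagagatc
Windows were found for 6 of the 10 genes (also PRRX1 and TCF4), counting for each the outermost start that had a window. The PRRX1 window, 170663881 to 170664130, lies inside the gene, which starts at 170662768. CAGGTG was in 1 of the 6, the ZEB1 window, or 16.7%, against 17.5% of all 35116 windows of 250 bases. CACGTG was in 0 of the 6 and in 6.34% of all windows. The letters of a window do not say whether a factor binds there.

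High glucose shifted 8 of the 10 genes at an adjusted p under 0.05 (limma on log2(CPM + 1), Benjamini-Hochberg over all genes): SNAI1, TWIST2, ZEB1, FOXC1 and FOXC2 rose, and SNAI2, TWIST1 and PRRX1 fell. ZEB2 and TCF4 did not pass. Of all 21059 genes, 46.8% passed, 22.0% higher and 24.8% lower at high glucose, so that much of the transcriptome moved with these genes. All 10 had means above 1 CPM, which many genes of the table did not reach. With genes under 1 CPM filtered out, 9631 of 14372 genes passed, and 8 of the 10. The 8 genes that passed were also those whose 4 high glucose libraries lay entirely on 1 side of the 4 low glucose libraries, which held for 44.5% of all genes. The median absolute log2 change of the 10, ZEB2 and TCF4 included, was 0.50. Over all called genes it was 0.52, but that set leaves out genes that did not pass, so these medians are not like for like. Of the 8 members that passed, SNAI2, TWIST2, PRRX1, FOXC1 and FOXC2 changed by more than 0.52. SNAI1, TWIST1 and ZEB1 changed by less. The median signed change of the 10 was 0.14, where it was -0.01 over all genes tested. In bulk RNA, fewer cells that express a gene and less RNA per cell cannot be told apart.

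**Figure D1:**
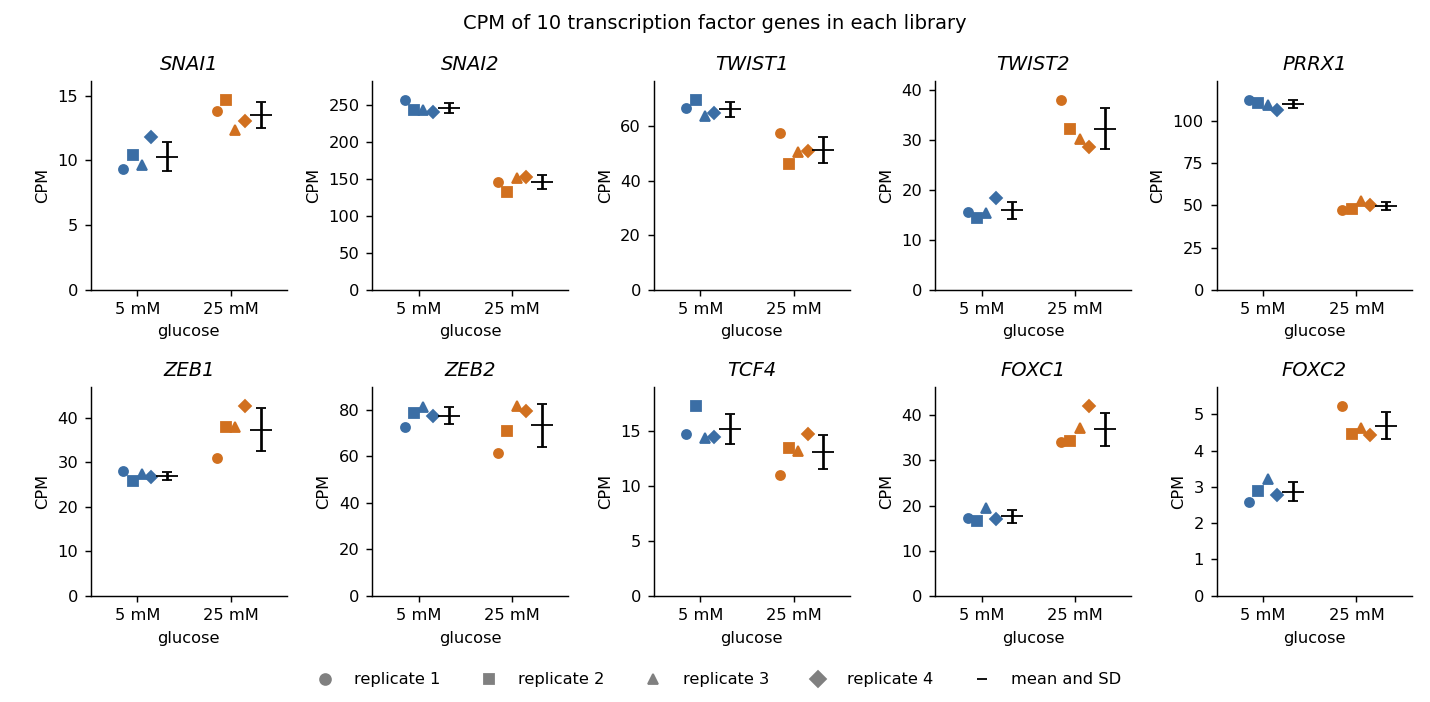
CPM of each of the 10 genes (y axis, from 0) in the 4 libraries at 5 mM and the 4 at 25 mM glucose (x axis), with 1 marker shape per replicate number and the mean and SD in black. SNAI2, TWIST1 and PRRX1 lie lower at 25 mM and SNAI1, TWIST2, ZEB1, FOXC1 and FOXC2 higher with no overlap, while ZEB2 and TCF4 overlap.

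SNAI2 (ENSG00000019549.12, chromosome 8, 48917598 to 48921429, minus strand, 3 exons) encodes Slug, an E-box repressor of epithelial genes. It was at 256, 242, 243 and 241 CPM in low glucose replicates 1 to 4 and at 145, 132, 152 and 152 CPM in high glucose replicates 1 to 4. The lowest low glucose library stood well above the highest high glucose library. SNAI2 fell by 40.9%, from 246 ± 7.33 to 145 ± 9.33 CPM (SD, n = 4). Its log2 change was -0.76 (SE 0.049, adjusted p = 2.29e-05).

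SNAI1 (ENSG00000124216.4, chromosome 20, 49982980 to 49988886, plus strand, 3 exons) encodes Snail, which represses CDH1 through the same E-boxes. Its values were 9.34, 10.4, 9.60 and 11.8 CPM at low glucose and 13.8, 14.7, 12.4 and 13.1 CPM at high glucose. The groups were separated by a narrow gap, between low glucose replicate 4 and high glucose replicate 3. SNAI1 rose by 31%, from 10.3 ± 1.11 to 13.5 ± 0.989 CPM, with a log2 change of 0.36 (SE 0.0838, adjusted p = 0.0101).

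TWIST1 (ENSG00000122691.13, chromosome 7, 19113047 to 19117636, minus strand, 2 exons), a basic helix-loop-helix factor of mesodermal development, was at 66.6, 69.6, 63.5 and 64.8 CPM at low glucose and at 57.5, 45.9, 50.3 and 50.8 CPM at high glucose. High glucose replicate 1, whose short transcripts read high, was the highest of its group for this 1630-base transcript. TWIST1 fell by 22.7%, from 66.1 ± 2.62 to 51.1 ± 4.76 CPM. The log2 change was -0.37 (SE 0.0665, adjusted p = 0.0032), or -0.42 if that library was left out.

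TWIST2 (ENSG00000233608.4, chromosome 2, 238848085 to 238910534, plus strand, 2 exons), a close paralog also called Dermo1, went the other way. It was at 15.6, 14.2, 15.4 and 18.3 CPM at low glucose and at 38.0, 32.2, 30.2 and 28.6 CPM at high glucose. Each high glucose library was above each low glucose library, and replicate 1 was again the highest for a transcript of 901 bases. The mean rose 2.03-fold, from 15.9 ± 1.71 to 32.2 ± 4.09 CPM. The log2 change was 0.98 (SE 0.105, adjusted p = 0.000253), or 0.90 if replicate 1 was left out (adjusted p = 0.000331).

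PRRX1 (ENSG00000116132.12, chromosome 1, 170662768 to 170739421, plus strand, 4 exons in the transcript used), a homeobox factor of limb and craniofacial mesenchyme, had the largest fall of the 10. It was at 113, 111, 109.8 and 107 CPM at low glucose and at 47.2, 47.8, 52.5 and 50.6 CPM at high glucose. Within each group the libraries lay close together, and the groups were far apart. The mean was 2.22-fold lower at high glucose, 49.5 ± 2.46 against 110.1 ± 2.37 CPM, with a log2 change of -1.14 (SE 0.0371, adjusted p = 1.78e-06). Over all genes, 1.41% had a fall at least as large.

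FOXC1 (ENSG00000054598.8, chromosome 6, 1609915 to 1613897, plus strand, 1 exon), a forkhead factor associated with basal-like breast cancer, had the largest rise. It was at 17.3, 16.6, 19.5 and 16.9 CPM at low glucose and at 34.0, 34.3, 37.1 and 42.0 CPM at high glucose. No high glucose library came near the low glucose range. FOXC1 rose 2.10-fold, from 17.6 ± 1.35 to 36.9 ± 3.72 CPM, with a log2 change of 1.03 (SE 0.0809, adjusted p = 5.68e-05), and 2.16% of all genes had a rise at least as large.

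FOXC2 (ENSG00000176692.7, chromosome 16, 86566829 to 86569728, plus strand, 1 exon), a forkhead factor of lymphatic and mesenchymal development, was the least abundant of the 10. Its values were 2.58, 2.90, 3.23 and 2.77 CPM at low glucose and 5.22, 4.46, 4.62 and 4.42 CPM at high glucose, which corresponds to 31 to 74 reads in a library. The groups did not overlap. FOXC2 rose 1.63-fold, from 2.87 ± 0.271 to 4.68 ± 0.372 CPM; its log2 change of 0.55 (SE 0.0795, adjusted p = 0.00105) is on the scale of CPM + 1, which understates the change of a gene this low, and with a pseudocount of 0.1 the change was 0.69.

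ZEB1 (ENSG00000148516.21, chromosome 10, 31318417 to 31529804, plus strand, 9 exons), the zinc finger repressor of CDH1 and of the miR-200 genes, was at 28.0, 25.9, 27.4 and 26.8 CPM at low glucose and at 31, 38.0, 37.9 and 42.7 CPM at high glucose. Replicate 1 had the lowest value at high glucose and still lay above every low glucose library. ZEB1 rose from 27.0 ± 0.896 to 37.4 ± 4.81 CPM, by 38.3%, with a log2 change of 0.44 (SE 0.0898, adjusted p = 0.00541). Without high glucose replicate 1 the change was 0.53 (adjusted p = 0.000312).

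ZEB2 (ENSG00000169554.20, chromosome 2, 144384081 to 144520119, minus strand, 10 exons), its paralog, was at 72.8, 78.4, 81.3 and 77.4 CPM at low glucose and at 61.4, 70.9, 81.6 and 79.5 CPM at high glucose. The groups overlapped, and high glucose replicate 1 was again the lowest for this transcript of 9265 bases. The log2 change was -0.08 (95% interval -0.30 to 0.13, adjusted p = 0.492), and without that library it was 0.00 (95% interval -0.15 to 0.14), so the replicates leave room for a modest shift either way.

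TCF4 (ENSG00000196628.16, chromosome 18, 55222185 to 55635957, minus strand, 20 exons), an E protein and dimer partner of other helix-loop-helix factors, was at 14.7, 17.2, 14.4 and 14.4 CPM at low glucose and at 10.9, 13.4, 13.1 and 14.7 CPM at high glucose. High glucose replicate 4 lay within the low glucose range, and high glucose replicate 1 was the lowest for this transcript of 8041 bases. The log2 change of -0.21 (95% interval -0.44 to 0.02) did not pass (adjusted p = 0.124) and was -0.13 without high glucose replicate 1. With a trend on transcript length removed from each library, it was -0.21 with an adjusted p of 0.0308.

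**Figure D2:**
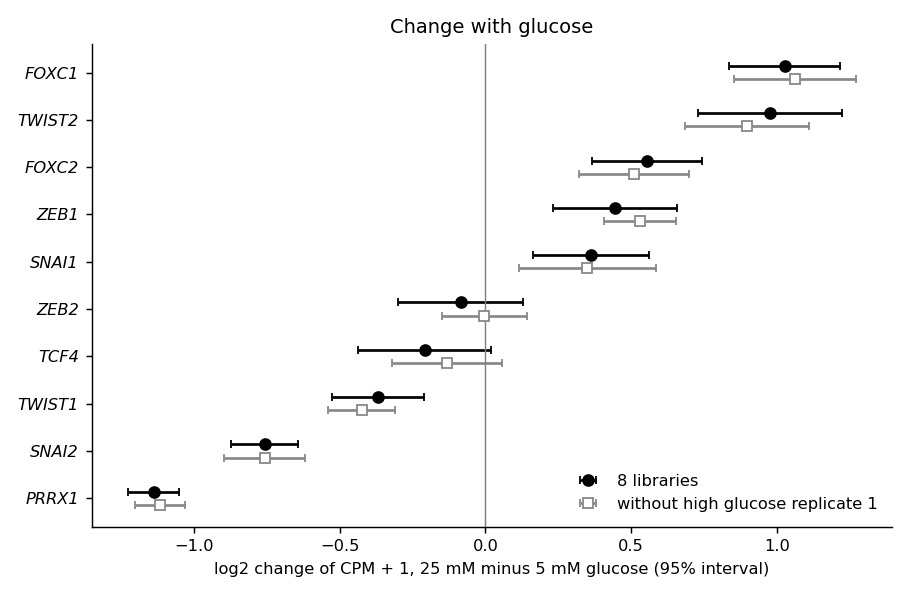
Log2 change of CPM + 1, 25 mM minus 5 mM glucose (x axis), with 95% intervals for each of the 10 genes, from all 8 libraries (black) and without high glucose replicate 1 (grey squares). PRRX1 lies at -1.14 and FOXC1 at 1.03, and the intervals of ZEB2 and TCF4 include 0 in both fits.

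Levels between genes were compared per kb of transcript. At low glucose SNAI2 was the most abundant, at 113 ± 3.36 CPM per kb (SD, n = 4), followed by TWIST1 at 40.6 ± 1.61, PRRX1 at 27.1 ± 0.584, TWIST2 at 17.6 ± 1.90, ZEB2 at 8.36 ± 0.382, SNAI1 at 6.04 ± 0.651, ZEB1 at 4.55 ± 0.151, FOXC1 at 4.41 ± 0.338, TCF4 at 1.89 ± 0.171 and FOXC2 at 0.989 ± 0.0936 CPM per kb. The libraries of neighbours overlapped at 1 place in that order, between ZEB1 and FOXC1. At high glucose the order per kb became SNAI2 at 66.5 ± 4.28, TWIST2 at 35.8 ± 4.54, TWIST1 at 31.4 ± 2.92, PRRX1 at 12.2 ± 0.606, FOXC1 at 9.26 ± 0.935, ZEB2 at 7.92 ± 0.993, SNAI1 at 7.91 ± 0.580, ZEB1 at 6.30 ± 0.810, TCF4 at 1.62 ± 0.192 and FOXC2 at 1.61 ± 0.128 CPM per kb. There TWIST2 and TWIST1 overlapped, as did FOXC1 with ZEB2, ZEB2 with SNAI1, and TCF4 with FOXC2. SNAI2 was above every other member in all 8 libraries.

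**Figure D3:**
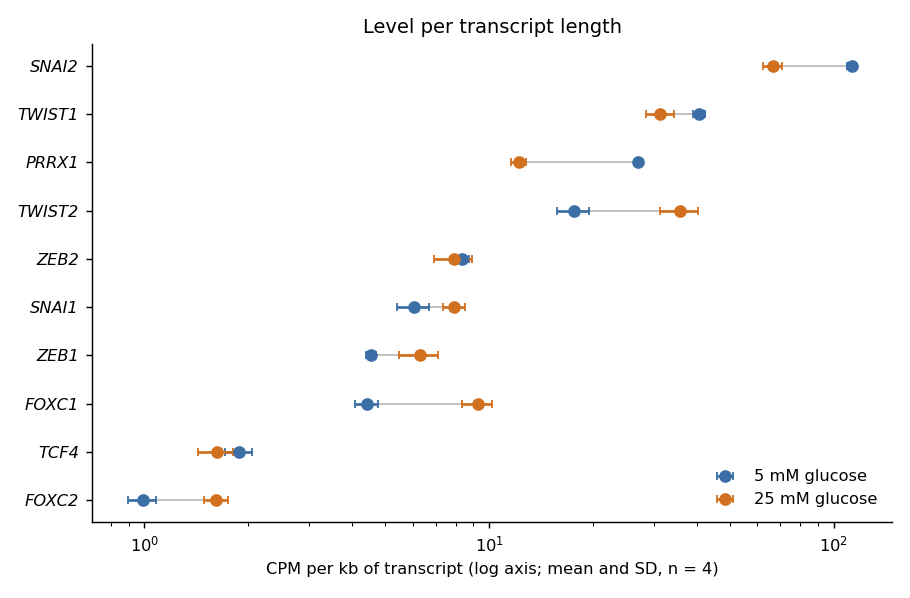
Mean level of each gene in CPM per kb of transcript (log x axis) with SD (n = 4) at 5 mM (blue) and 25 mM (orange) glucose, with genes ordered by their level at 5 mM. SNAI2 falls from 113 to 66.5 CPM per kb and stays first, and TWIST2 moves from 17.6 to 35.8.

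Each of the 4 paralog pairs was compared within each library as a difference of log2(CPM + 1). In TWIST1 minus TWIST2, the low glucose libraries had 2.03, 2.21, 1.98 and 1.77 and the high glucose libraries 0.58, 0.50, 0.72 and 0.81, a shift of -1.34. Per kb, TWIST1 was 2.33 ± 0.304 times the level of TWIST2 at low glucose and 0.882 ± 0.0865 times at high glucose (SD, n = 4). TWIST1 was higher per kb in all 4 low glucose libraries, at 1.96 to 2.70 times, and lower in all 4 high glucose libraries, at 0.788 to 0.982 times.

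In SNAI1 minus SNAI2, the difference was -4.64, -4.41, -4.52 and -4.24 at low glucose and -3.30, -3.08, -3.51 and -3.44 at high glucose, a shift of 1.12. SNAI1 stood per kb at 0.0537 ± 0.00692 of the level of SNAI2 at low glucose and at 0.12 ± 0.0167 at high glucose. SNAI2 remained the main paralog in all 8 libraries. In ZEB1 minus ZEB2, the difference was -1.35, -1.56, -1.53 and -1.5 at low glucose and -0.96, -0.88, -1.09 and -0.88 at high glucose, a shift of 0.53, and the ratio per kb went from 0.546 ± 0.0379 to 0.796 ± 0.0533. High glucose replicate 1, in which both ZEB transcripts were lowest, did not stand apart in this difference.

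FOXC1 and FOXC2 both rose, FOXC1 by more on this scale: the difference was 2.35, 2.17, 2.28 and 2.25 at low glucose and 2.49, 2.69, 2.76 and 2.99 at high glucose, a shift of 0.47. Per kb, with no pseudocount, FOXC1 was 4.16 to 4.86 times the level of FOXC2 at low glucose. At high glucose FOXC1 was at 4.74 to 6.93 times, so these ranges overlapped. On the scale of log2(CPM + 1), each of the 4 shifts separated the groups completely. For TWIST and SNAI this follows from the values above, since the paralogs moved in opposite directions without overlap, and their shifts are a description. ZEB1 against ZEB2 and FOXC1 against FOXC2 each had an exact 2-sided permutation p of 0.0286 over 70 assignments, the smallest that 4 against 4 allows, and adjusted p = 0.0286 over the 4 pairs. Without any 1 of the 4 low glucose libraries, or with a pseudocount of 0.1, the adjusted p of FOXC1 against FOXC2 was 0.0571, with shifts of 0.44 to 0.50 and of 0.37. ZEB1 against ZEB2 had an adjusted p of 0.0381 by the same permutation test in each of these 5 settings. That adjustment counts all 4 pairs, the TWIST and SNAI descriptions among them. With all 8 libraries and log2(CPM + 1), each of the 4 pairs had the same permutation p. The adjusted p there therefore did not depend on counting those 2. In the 5 settings above, the call of ZEB1 against ZEB2 did depend on it. The pairs are not ranked by these calls.

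**Figure D4:**
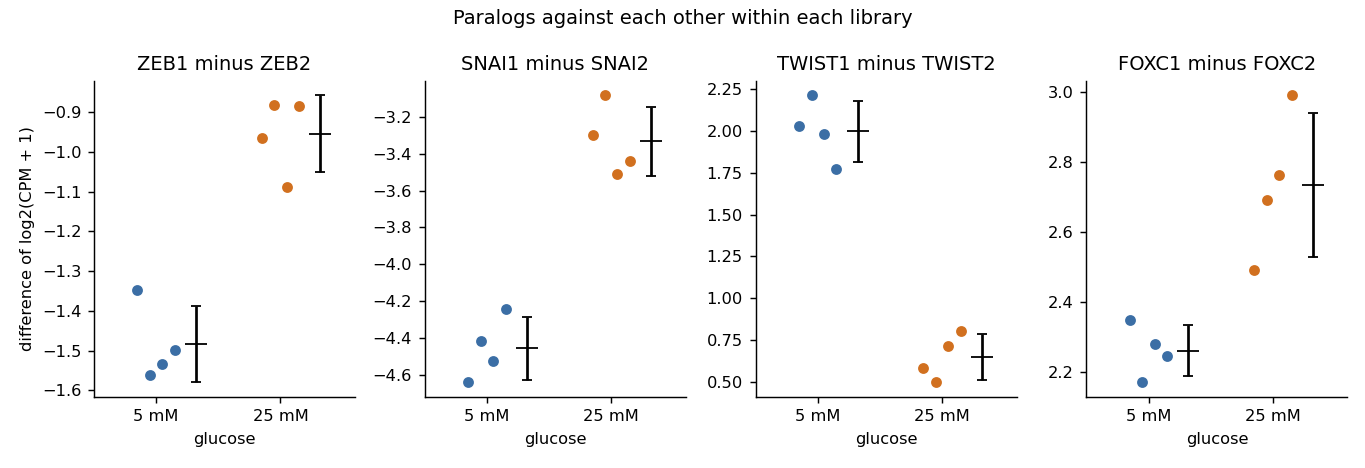
Difference of log2(CPM + 1) between paralogs within each library (y axis, separate scale per panel) at 5 mM and 25 mM glucose (x axis), with mean and SD in black. In each of the 4 panels the libraries of the groups do not overlap; TWIST1 minus TWIST2 goes from a mean of 2.0 to one of 0.65 and SNAI1 minus SNAI2 from -4.45 to -3.33.

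Little of the sequence of these transcripts occurred in annotated transcripts of other genes, and reads were not examined. At most 3.10% of the 31-base words of a transcript occurred in another gene, the highest being FOXC2, which shared 2.96% with FOXC1, and TWIST1, TWIST2 and SNAI2 shared 0%. Antisense transcripts overlap exons of several of them, and whether reads were assigned by strand is not given in the sources used here. ZEB1-AS1, which shares 396 exon bases with ZEB1, averaged 1.78 ± 0.562 CPM (low glucose) and 1.33 ± 0.15 CPM (high glucose). AC003986.2, which shares 141 exon bases with TWIST1, was at 1.49 ± 0.303 and 1.47 ± 0.330 CPM, and FOXC2-AS1, which shares 231 with FOXC2, was at 0 to 0.205 CPM in the 8 libraries. None of these 3 passed (adjusted p = 0.213, 0.984 and 0.518, limma), and all were far below the gene they overlap. Other transcripts on the opposite strand of ZEB2, SNAI2 and TCF4 were not analysed here. AC009951.1, a pseudogene on the same strand that shares 2966 exon bases with ZEB2, was not in the table.

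The pattern of FOXC1 over the 8 libraries, as log2(CPM + 1) centred on the low glucose mean, was closest to that of TLE4 among 11296 other genes with a mean of at least 5 CPM, with a root mean square difference of 0.0649. TLE4, a Groucho-family corepressor, was at 63.1 ± 2.75 and 128 ± 7.36 CPM. Next came RPS6KA5, a kinase, and ANLN, the actin-binding protein anillin, at 0.073 and 0.0739. For PRRX1 the nearest were GREM1, a secreted antagonist of bone morphogenetic proteins (BMP), at 0.0419, WARS, a tryptophanyl-tRNA synthetase, at 0.0474, and SCD, a fatty acid desaturase, at 0.0581. GREM1 was at 71.4 ± 2.26 and 32 ± 0.684 CPM. These are likenesses over 8 libraries of 2 groups.

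The dimer partners and their inhibitors moved unequally. Among 6 genes for E proteins and ID inhibitors, 1 rose, 3 fell and 2 did not pass, with a median log2 change of -0.23. The share called was 66.7%, where 46.8% of all genes passed. Under the filter at 1 CPM, 5 of the 6 passed, where 9631 of 14372 genes did. ID3, an inhibitor that keeps E proteins from DNA, had 16.8, 14.3, 16.4 and 16.2 CPM in the low glucose libraries against 8.12, 6.54, 5.20 and 4.00 CPM in the high glucose ones. Its log2 change was -1.32 (SE 0.181, adjusted p = 0.000848), with no overlap between the groups. ID1 fell from 12.9 ± 0.693 to 6.92 ± 1.80 CPM (log2 change -0.84, adjusted p = 0.00335). ID4 rose from 18.7 ± 1.12 to 23.3 ± 1.35 CPM (log2 change 0.30, adjusted p = 0.00376), and ID2 was at 8.05 ± 0.944 and 8.03 ± 1.11 CPM. Of the E proteins, TCF12 fell from 111 ± 4.05 to 95.2 ± 7.48 CPM (log2 change -0.22, adjusted p = 0.0189), and TCF3 was at 72.8 ± 4.83 and 61.7 ± 6.55 CPM (log2 change -0.24, adjusted p = 0.0534). TCF12 lost its call without low glucose replicate 2 or 4, at -0.20 (adjusted p = 0.0525) and -0.21 (adjusted p = 0.0503), and with median-of-ratios scaling, at -0.18 (adjusted p = 0.0555), and TCF3 gained one in 4 settings: without high glucose replicate 1, at -0.29 (adjusted p = 0.0286), with genes under 1 CPM filtered out (adjusted p = 0.0140), with the length trend removed (adjusted p = 0.00771) and with voom weights (adjusted p = 0.0364).

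Of 24 other EMT-associated transcription factors, 23 were in the table, of which 10 rose, 2 fell and 11 did not pass. This was a share of 52.2% called, where 46.8% of all genes passed. One that rose, FOXF1, was at 0 CPM in every low glucose library and at 0.0825 to 0.319 CPM at high glucose. The median log2 change of the 23 was 0.21, where it was -0.01 over all genes. Over the 17 with a mean of at least 1 CPM it was 0.36, where it was -0.04 over all genes of that level. Under the filter at 1 CPM, 13 of these 17 passed, where 9631 of 14372 genes did. HMGA2, a chromatin protein that induces SNAI1, rose from 7.30 ± 0.327 to 15 ± 0.430 CPM (log2 change 0.95, adjusted p = 6.33e-06). YBX1, an RNA- and DNA-binding protein linked to SNAI1 translation, rose from 611 ± 5.14 to 982 ± 70.3 CPM, and TBX3, a T-box repressor, from 60.4 ± 2.11 to 88.7 ± 4.65 CPM. SOX4 fell from 155 ± 2.96 to 105 ± 2.80 CPM (log2 change -0.56, adjusted p = 4.68e-06).

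Genes for corepressors and chromatin partners of the 10 factors passed in 25 of 33 cases, 18 higher and 7 lower, with a median log2 change of 0.23. Under the filter at 1 CPM, 27 of the 33 passed, where 9631 of 14372 genes did. KAT2B, an acetyltransferase, rose from 15.8 ± 1.5 to 47.6 ± 2.33 CPM (log2 change 1.54, adjusted p = 4.95e-06). SUZ12, a subunit of Polycomb repressive complex 2, rose from 67.4 ± 1.59 to 115 ± 1.16 CPM (log2 change 0.76), AJUBA, a SNAI corepressor, from 75.9 ± 2.33 to 125 ± 3.36 CPM (log2 change 0.71), and RBBP7, a histone-binding subunit, from 171 ± 2.23 to 232 ± 4.92 CPM (log2 change 0.44). The CtBP corepressors recruited by ZEB proteins did not pass: CTBP1 was at 55.0 ± 3.64 and 46.2 ± 6.44 CPM (adjusted p = 0.0756) and CTBP2 at 55.0 ± 3.72 and 57.6 ± 5.22 CPM (adjusted p = 0.534). CTBP1 passed without high glucose replicate 1, at -0.34 (adjusted p = 0.0126), with genes under 1 CPM filtered out, at -0.25 (adjusted p = 0.0205), and with the length trend removed, at -0.21 (adjusted p = 0.0145).

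Several of these factors are controlled by protein turnover, which RNA does not measure. Of 29 genes for regulators of their stability, 28 were in the table, of which 10 rose, 7 fell and 11 did not pass. Their median log2 change was 0.10. The share called was 60.7%, where 46.8% of all genes passed. Under the filter at 1 CPM, 19 of the 28 passed, where 9631 of 14372 genes did, a like share. LATS2, a kinase that stabilizes Snail in the nucleus, rose from 20.2 ± 1.68 to 43.9 ± 2.54 CPM (log2 change 1.08, adjusted p = 1.73e-05). FBXO45, part of a ubiquitin ligase that targets several EMT factors, rose from 25.6 ± 1.80 to 41.0 ± 2.99 CPM, and COPS2, a COP9 signalosome subunit, from 72.2 ± 3.49 to 95.6 ± 3.83 CPM. EIF3H, a subunit of a translation initiation factor, fell from 413 ± 8.43 to 326 ± 18.0 CPM (log2 change -0.34, adjusted p = 0.000424).

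On the side of the targets, CDH1, the gene most often used to read out these repressors, was near the floor in both groups. It was at 1.08, 0.663, 1.1 and 0.947 CPM at low glucose and at 1.41, 1.04, 0.330 and 1.07 CPM at high glucose. The groups overlapped, and the change of -0.02 (95% interval -0.46 to 0.42, adjusted p = 0.99) was smaller than the spread between replicates. Among 36 epithelial genes, 10 were at or under the floor in every library, 8 rose, 4 fell and 24 did not pass. This was a share of 33.3% called, where 46.8% of all genes passed. The median log2 change of the 36 was 0.03, a value set in part by the genes at the floor. Over the 17 with a mean of at least 1 CPM it was 0.31 (8 rose and 3 fell). Over all genes of that level the median was -0.04. Under the filter at 1 CPM, 12 of these 17 passed, where 9631 of 14372 genes did. The genes that rose with the smallest adjusted p encode junction and membrane proteins. OCLN (occludin) rose from 6.68 ± 0.695 to 20.7 ± 0.991 CPM (log2 change 1.5, adjusted p = 7.86e-06), CGN (cingulin) from 8.37 ± 1.02 to 27.0 ± 1.87 CPM (log2 change 1.58), MAL2, a protein of apical transport, from 6.11 ± 0.727 to 24.8 ± 2.76 CPM (log2 change 1.86), and F11R (JAM-A) from 14.3 ± 0.437 to 22.7 ± 1.3 CPM (log2 change 0.63). In each of the 4 the groups did not overlap. Of the 4 that fell, MUC1, an apical membrane mucin, went from 9.36 ± 0.613 to 4.72 ± 0.602 CPM (log2 change -0.86, adjusted p = 0.000256) and LLGL2, a polarity protein, from 15.5 ± 1.94 to 9.97 ± 1.21 CPM (log2 change -0.59, adjusted p = 0.00364). CLDN7 and JUP had log2 changes of -0.33 and -0.31 (adjusted p = 0.00677 and 0.0436). These 4 were named after their values were seen.

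The 250 bases before the outermost start of OCLN and CGN are shown with the same E-boxes in capitals, since these genes rose and occludin is a known target of Snail.
OCLN, chr5.0:69492297-69492546, plus strand: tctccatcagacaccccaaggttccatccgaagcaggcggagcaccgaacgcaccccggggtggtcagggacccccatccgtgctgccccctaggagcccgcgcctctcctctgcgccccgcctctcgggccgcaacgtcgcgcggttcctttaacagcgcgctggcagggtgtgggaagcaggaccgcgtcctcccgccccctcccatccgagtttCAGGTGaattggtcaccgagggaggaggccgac
CGN, chr1.0:151511137-151511386, plus strand: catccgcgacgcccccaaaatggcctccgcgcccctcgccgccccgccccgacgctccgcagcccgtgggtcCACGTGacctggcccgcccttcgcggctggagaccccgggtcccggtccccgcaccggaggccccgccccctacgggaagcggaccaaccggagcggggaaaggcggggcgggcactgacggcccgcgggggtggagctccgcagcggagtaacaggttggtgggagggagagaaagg
OCLN holds 1 CAGGTG and CGN 1 CACGTG. Upstream windows were found for 20 of the 36 epithelial genes, and 9 of these, 45%, held CAGGTG on either strand, where 17.5% of all windows did. Among the 5 of them that rose, 2 held it. The 36 genes were listed as targets of such repressors, and 1 window per gene was counted, where a gene can hold several among all windows. The shares are therefore a description.

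Mesenchymal genes passed in 33 of 40 cases, 9 higher and 24 lower, and had a median log2 change of -0.44, where the median over all genes was -0.01. Under the filter at 1 CPM, 32 of 39 passed, where 9631 of 14372 genes did. The summed level of the 40 mesenchymal genes was 60286 to 61946 CPM in the low glucose libraries and 31759 to 32814 CPM in the high glucose libraries. SPARC (osteonectin) and COL3A1 (type III collagen), the most abundant members, named after their values were seen, made up 63.6% of the low glucose sum and 72.7% of its fall; the other genes summed to 21909 to 22604 CPM at low and 14155 to 14747 CPM at high glucose. LUM (lumican) and DCN (decorin), small proteoglycans of the collagen matrix, fell from 901 ± 21.3 to 351 ± 16.3 CPM (log2 change -1.36, adjusted p = 1.23e-06) and from 306 ± 5.91 to 131 ± 10.8 CPM (log2 change -1.22). PDGFRB, a growth factor receptor of mesenchymal cells, fell from 1456 ± 16.8 to 766 ± 24.2 CPM (log2 change -0.93). VIM (vimentin) fell from 4091 ± 28.5 to 2967 ± 210.3 CPM (log2 change -0.47, adjusted p = 0.00224). Against these, WNT5A, a noncanonical Wnt ligand, rose from 34.2 ± 1.48 to 80.1 ± 3.95 CPM (log2 change 1.21, adjusted p = 2.53e-06), and CDH2 (N-cadherin) rose from 55.2 ± 2.29 to 75.5 ± 1.80 CPM (log2 change 0.44, adjusted p = 4.63e-05).

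**Figure D5:**
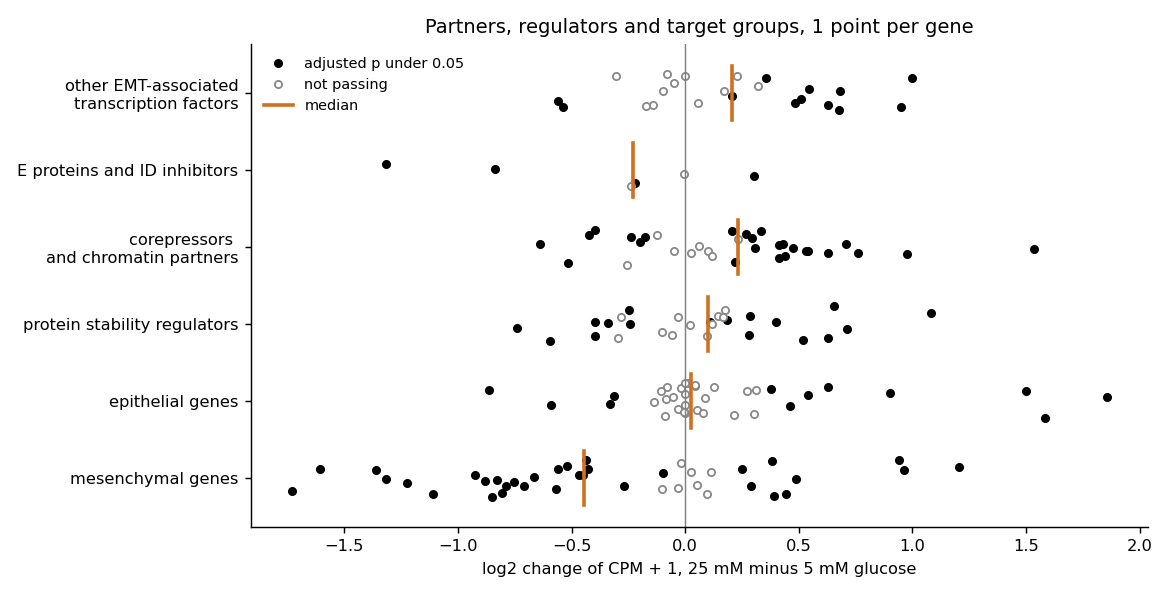
Log2 change of CPM + 1, 25 mM minus 5 mM glucose (x axis), of each gene in 6 groups of partners, regulators and targets; filled points passed an adjusted p of 0.05 and the orange line is the median of the group. Mesenchymal genes have a median of -0.44, corepressors and chromatin partners of 0.23 and epithelial genes of 0.03, or 0.31 over the 17 epithelial genes of at least 1 CPM.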

How the data were processed

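RNA sequencing was done on 8 libraries of MDA-MB-157 cells, 4 per glucose level, grouped by the sample titles. The authors deposited 1 table of CPM values (read counts scaled to library size), adjusted by TMM factors with edgeR; the labels name hg38, while the study's methods describe TopHat on hg19 for tumors, and the counting tool, its use of strand and the annotation are not given in the sources used here. Values below 200 reads were whole reads in only 72.0% to 73.3% of cases, so counts were not recovered, depth was estimated from the size of 1 read, and floors of 3 reads cover counting error only. No column was left out as another sample's; 18 Y copies of pseudoautosomal genes were.

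All 21059 genes were compared with limma 3.58.1 in R 4.3.3 on log2(CPM + 1), 2-sided, with a mean-variance trend and Benjamini-Hochberg adjustment over all genes, after a test of the steps on simulated data. Paralog differences were tested by exact permutation. Members, lists and tests were chosen with earlier results of these data known, and p-values therefore carry that choice. Named genes are the members, up to 4 genes per list with the smallest adjusted p and a mean of at least 1 CPM, CDH1, VIM, CDH2, CTBP1, CTBP2, TCF3, TCF12 and ID1 to ID4, overlapping or divergent neighbours within 5 kb, and the 3 genes nearest in pattern to the members with the largest rise and fall. Positions come from RefSeq (GRCh38.p14), where 10 of 10 symbols matched; transcript lengths, exon overlap and 3′ UTRs come from GENCODE 44 on GRCh37. Alternatives were 2 other pseudocounts, a filter at 1 CPM, 2 other scalings, a replicate block, removal of a length trend, voom weights and leaving out each library.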

Additional observations from a re-analysis of the deposited data

Results flagged for a closer look

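In 2 of the 20 sets of 4 libraries (10 genes in each of the 2 groups), 1 library lay far from the other 3, where chance gives about 1 in 20 sets. SNAI2 was at 256 CPM in low glucose replicate 1 and at 241 to 243 CPM in the other 3, a gap of 0.869 of the range on the log2 scale. TCF4 was at 17.2 CPM in low glucose replicate 2 and at 14.4 to 14.7 CPM in the other 3, a gap of 0.882 of the range. Without the first library the log2 change of SNAI2 was -0.74, and without the second that of TCF4 was -0.15 (adjusted p = 0.264, limma).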

How the results depend on the processing

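Of the 10 members, 9 kept their direction and their side of the threshold in all 16 alternatives, and 8 or 9 members passed in each. TCF4 passed with the length trend removed, at -0.21. The number of genes called over the table ran from 8899 to 10156, and no count of a gene group moved by over 1.5 times. Replicate numbers do not pair the samples: the correlation of same-numbered deviations was -0.0403 to 0.0692 over 11297 genes, and under the replicate block the same number of members passed, 8, with 8921 genes over the table. In the paralog pairs, permuting within replicate numbers (replicate block) allows no p under 0.125 and gave that p to all 4, with shifts of 0.53, 1.12, -1.34 and 0.47. FOXC1 against FOXC2 lost its call with a pseudocount of 0.1, at 0.37, and without any 1 of the low glucose libraries (adjusted p = 0.0571); leaving out each of the 8 libraries gave 0.39 to 0.55; the cause was not tested. Among genes named beside the members, 3 that were not called and lay near 0 changed sign. AC003986.2 was at 0.012 with median-of-ratios scaling, 0.0019 with equal totals, 0.075 without the length trend and -0.10 to 0.054 over the fits without 1 library. CDH1 was at 0.00026 with a pseudocount of 5, 0.0023 with median-of-ratios scaling and -0.13 to 0.16 over the fits without 1 library. ID2 was at 0.032 with median-of-ratios scaling, 0.016 with equal totals, 0.10 without the length trend, 0.012 with voom weights and -0.080 to 0.059 over the fits without 1 library. Depth limits values near the floor of 3 reads, such as those of FOXC2-AS1 and CDH5. The median shift over genes of at least 1 CPM was -0.05 to 0.00 in every setting.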
